A study of Mus musculus with 8 samples.

Results

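The genes described here encode the core histones H2A, H2B, H3 and H4 and the linker histone H1. They were followed in Thy1+CD25+ T lineage cells and in lineage-negative cells grown from mouse bone marrow progenitors. A probeset, the group of array probes summarised to 1 value, was included when it was mapped to exactly 1 gene whose symbol carried the standard prefix of a histone gene (Hist1h to Hist4h in the older naming, or H1f, H2ac, H2bc, H3c or H4c followed by digits). This gave 30 probesets for 30 genes, of 21789 probesets mapped to 1 gene and 35399 in the table. By class there were 8 H1, 4 H2A, 9 H2B, 3 H3 and 6 H4 genes. A further 26 probesets matched several histone genes at once and are described apart from the members.

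The study used 8 arrays in 3 groups. Wildtype (Tcf7+/+) T lineage cells, sorted as Thy1+CD25+, had 2 arrays. Lineage-negative cells, sorted as negative for Mac1, Gr1, Thy1 and CD25, had 3 arrays from Tcf1-deficient (Tcf7-/-) mice and 3 arrays from wildtype (Tcf7+/+) mice, with a separate mouse behind each. All groups began as lymphoid primed multipotent progenitors (LMPPs, lineage marker-negative, Sca+kit+Flt3high) of bone marrow. They were cultured to day 4 on OP9-DL4, mouse stroma that offers cells a ligand of Notch. The medium held 5 ng/ml of Flt3L and 1 ng/ml of a cytokine labelled IL1. All groups were sorted as CD45.2-positive cells, and the mice of both genotypes are labelled as kept on a mixed background. Their age is not given in the labels. The deficiency is in the mouse line itself, so progenitors had developed without Tcf1 before culture began, and per the labels no T lineage cells formed from deficient progenitors. The labels call the T lineage arrays biological replicates without saying that they came from separate mice, so p-values measure the spread between these arrays.

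Core histones wrap DNA into nucleosomes, and H1 binds the linker DNA between them. Most histone genes lie in clusters, lack introns and are transcribed during S phase, when new DNA has to be packaged. Their mRNAs end in a stem-loop in place of a poly(A) tail, and the stem-loop is bound by the protein Slbp. Some clustered genes, among them the human counterparts of H1f2, H2bc4 and H2bc21, are also known to give polyadenylated transcripts outside S phase. These examples were picked because the genes fell in T lineage cells. The form of their transcripts was not measured, and its part in the falls was not tested. Replication-independent variants such as H2A.Z and macroH2A are made from genes outside the clusters. H1f6 and H1f7 encode testis forms of the linker histone, H1f8 the oocyte form, and H2ac1 and H2bc1 the testis forms of H2A and H2B.

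On the GRCm38.p6 assembly, the RefSeq annotation placed 23 of the 30 genes on chromosome 13 over 2.213 Mb, 4 on chromosome 3 over 0.0491 Mb, 2 on chromosome 6 (H1f8 and H1f10) and 1 on chromosome 15 (H1f7). RefSeq promoter sequences were at hand for 26 of the 30, and not for H2bc4, H2bc21, H3c7 and H4c14. The 250 bases before each start were searched on both strands for 4 elements known from histone promoters, the octamer ATTTGCAT, the CCAAT box, the H1 box AAACACA and TATAAA. None of these letter strings contains another, and matches of each were counted apart. The octamer was found in 5 of 7 H2B and 3 of 4 H2A promoters and in 0 of 8 H1, 0 of 2 H3 and 0 of 5 H4 promoters, against 1.60% of all 32851 promoters. CCAAT was found in 20 of 26 members' promoters, against 33.9% of all promoters. The H1 box was found in 4 of 8 H1, 2 of 4 H2A and 2 of 7 H2B promoters and in 0 of 2 H3 and 0 of 5 H4 promoters, against 6.25% of all. TATAAA was found in 14 of 26 members' promoters, against 12.4% of all. The 3 octamers of H2A promoters were all on the opposite strand. H2ac8 and H2bc8 start 0.18 kb apart in opposite directions, and H2ac1 and H2bc1 0.28 kb apart, so the windows of each pair overlap. Matches in the overlap were counted for both genes, and the octamer of each pair was a single shared site. The H2A and H2B counts of all elements are therefore not independent.

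The promoters of 4 linker histone genes are shown because 1 of these genes fell, 1 rose and 2 passed no test in T lineage cells. Each line holds the 130 bases before the start, 5′ to 3′ on the gene's strand, with the H1 box AAACACA and the downstream CCAAT in capitals. H1f2 is at chr13:23738677-23738806, plus strand, H1f5 at chr13:21780626-21780755, minus strand, H1f3 at chr13:23554902-23555031, plus strand and H1f1 at chr13:23763538-23763667, plus strand, all on GRCm38.p6.
H1f2: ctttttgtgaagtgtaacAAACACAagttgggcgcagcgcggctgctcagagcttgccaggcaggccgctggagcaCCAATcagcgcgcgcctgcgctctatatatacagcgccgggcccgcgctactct
H1f5: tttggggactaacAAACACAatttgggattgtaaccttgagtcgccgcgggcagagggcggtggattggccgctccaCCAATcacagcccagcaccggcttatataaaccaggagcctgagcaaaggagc
H1f3: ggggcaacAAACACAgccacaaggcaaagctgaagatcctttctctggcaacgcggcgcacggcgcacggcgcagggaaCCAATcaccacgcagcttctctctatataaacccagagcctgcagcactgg
H1f1: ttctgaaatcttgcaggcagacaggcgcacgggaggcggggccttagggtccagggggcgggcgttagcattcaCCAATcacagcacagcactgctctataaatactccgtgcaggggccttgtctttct
H1f2, H1f5 and H1f3 carried both elements at like distances. The H1 box ended 106, 111 and 116 bases before the start of these genes in that order, and the CCAAT box ended 50, 49 and 47 bases before it. H1f1 had the CCAAT box, ending 52 bases before the start, and no AAACACA in the window searched. H1f2, which fell, and H1f5, which rose, shared both letter strings.

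Promoters of 4 H2B genes with an octamer are shown for the same reason, since H2bc18 and H2bc14 rose in T lineage cells and H2bc8 and H2bc3 were not called. The octamer ATTTGCAT is in capitals, and the windows are the same 130 bases. H2bc18 is at chr3:96269570-96269699, plus strand, H2bc14 at chr13:21721914-21722043, plus strand, H2bc8 at chr13:23571270-23571399, plus strand and H2bc3 at chr13:23746604-23746733, plus strand.
H2bc18: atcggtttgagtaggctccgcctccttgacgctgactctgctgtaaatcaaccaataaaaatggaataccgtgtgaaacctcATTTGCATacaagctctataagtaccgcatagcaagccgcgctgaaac
H2bc14: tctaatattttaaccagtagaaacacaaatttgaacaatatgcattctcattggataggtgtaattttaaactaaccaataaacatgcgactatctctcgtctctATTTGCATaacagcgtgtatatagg
H2bc8: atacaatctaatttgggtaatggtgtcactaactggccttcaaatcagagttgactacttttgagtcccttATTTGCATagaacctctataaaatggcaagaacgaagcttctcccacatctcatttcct
H2bc3: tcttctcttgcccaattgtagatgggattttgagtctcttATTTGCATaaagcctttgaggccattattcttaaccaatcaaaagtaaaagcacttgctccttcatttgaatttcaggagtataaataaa
The octamer ended 41 bases before the start in H2bc18, 18 in H2bc14, 52 in H2bc8 and 83 in H2bc3. In H2bc1, the testis form, it ended 157 bases before the start. H2bc9, which rose, and H2bc22, which was not called, had none in the window.

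Array medians over all probesets lay between 6.85 and 6.91 on the log2 scale, and all levels below are log2 values per probeset. Signals of different probesets depend on their probes, so levels were compared between arrays and not between genes. Marker genes were compared between the sorted groups. Their lists included genes of the sort gate. These were Thy1 and Il2ra (CD25) for T lineage, and Itgam (Mac1) and Ly6g (Gr1) for granulocytes and monocytes. For Thy1 and Il2ra the sort set the direction in advance, so they are no independent check of identity. By limma all 9 measured T lineage markers rose in T lineage cells against the wildtype lineage-negative group, and their median level was 10.22 and 8.86 in the T lineage arrays, against 6.59 to 6.75 in deficient and 6.69 to 6.93 in wildtype lineage-negative arrays. Dendritic cell markers were lower in T lineage cells, 10 of 10, with medians of 6.18 and 6.44, against 9.65 to 10.11 in deficient and 10.02 to 10.31 in wildtype lineage-negative arrays. Granulocyte and monocyte markers were lower for 7 of 13, with medians of 6.34 and 6.54, against 8.63 to 8.79 in deficient and 8.64 to 8.95 in wildtype lineage-negative arrays. Of B lineage markers 1 of 6 was lower, and of erythroid and megakaryocyte markers 1 of 6 was higher and 1 lower. Of OP9 stromal markers, 2 of 10 were lower and none higher. In the same test 7.66% of all probesets were higher and 10.4% lower, at an adjusted p under 0.05. Between deficient and wildtype lineage-negative cells, 1 of the 9 T lineage markers was lower by limma, against 0.00459% of all probesets. No marker of the other lists passed the threshold there. The part of these markers in the histone differences was not tested. Fewer cells of a type and less RNA per cell cannot be told apart in such bulk samples. Wildtype lineage-negative replicate 2 stood low for many histone genes, and the main results of the members are also given without it. The probesets of several histone genes were not refitted without it.

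T lineage cells differed from wildtype lineage-negative cells in both directions. In T lineage cells 11 of the 30 histone genes rose, by 1.27- to 1.78-fold, and 3 fell, by 2.08- to 3.16-fold. The genes that fell were H2bc4 and H2bc21, which encode H2B, and H1f2, which encodes the linker histone H1.2. Those that rose were 4 H4, 4 H2B and 2 H2A genes and 1 linker histone gene, H1f5. By limma with Benjamini-Hochberg adjustment over all 21789 probesets, an adjusted p under 0.05 being a call, the 11 higher genes were 36.7% of the members, against 7.66% of all probesets. The 3 lower genes were 10.0% of the members, against 10.4% of all probesets, a share near the background. The median difference over the members was 0.21, against 0.04 over all probesets, and 25 of 30 differences were positive. Both T lineage arrays lay above all wildtype lineage-negative arrays for 14 members (46.7%, against 28% of all probesets) and below them for 4 (13.3%, against 19.8%).

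**Figure D1:**
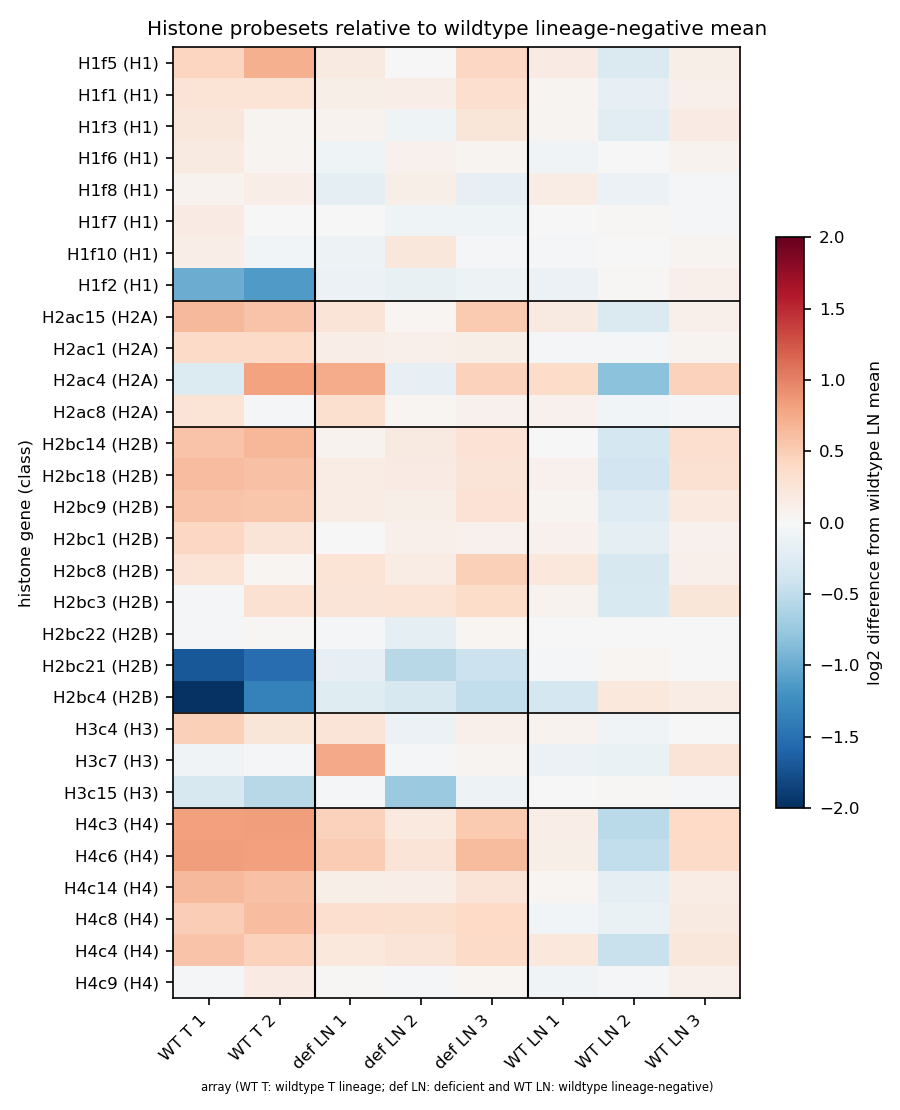
Each cell shows the log2 level of 1 histone probeset on 1 array minus its mean over the 3 wildtype lineage-negative arrays; rows are genes grouped by class, and columns are the 2 wildtype T lineage, 3 deficient and 3 wildtype lineage-negative (LN) arrays. H2bc4, H2bc21 and H1f2 are the bluest genes in both T lineage arrays, most H4 and several H2B rows are red there, and wildtype LN replicate 2 is blue in many of the same rows.

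H2bc4 (Hist1h2bc in the older naming, chr13:23684199-23692480) stood at 7.71 and 8.32 in T lineage arrays, at 9.44, 9.35 and 9.18 in deficient lineage-negative arrays and at 9.32, 9.88 and 9.82 in wildtype lineage-negative arrays. Both T lineage arrays were below all the other arrays, and the 2 lineage-negative groups overlapped. Against wildtype lineage-negative cells the level fell by 1.66 on the log2 scale (SE 0.20), or 3.16-fold, with an adjusted p of 0.000165 (limma). The 2 T lineage arrays differed from each other by more than the lineage-negative arrays did within either group.

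H2bc21 (Hist2h2be, chr3:96221072-96223738) encodes an H2B known in mouse as a replacement form in olfactory neurons. Its level was 9.23 and 9.40 in T lineage arrays, 10.76, 10.37 and 10.50 in deficient arrays and 10.89, 10.97 and 10.92 in wildtype lineage-negative arrays. The 3 groups did not overlap, with T lineage arrays lowest and wildtype lineage-negative arrays highest. The fall in T lineage cells against wildtype lineage-negative cells was 3.05-fold, a difference of -1.61 (SE 0.11, limma adjusted p = 3.37e-06).

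H1f2 (Hist1h1c, chr13:23738807-23739531) encodes H1.2, one of the linker histones of somatic cells. It measured 8.78 and 8.65 in T lineage arrays, 9.66, 9.63 and 9.68 in deficient arrays and 9.67, 9.79 and 9.87 in wildtype lineage-negative arrays. The T lineage arrays were again the lowest, and the lineage-negative groups overlapped. The difference was -1.06 (SE 0.08), a 2.08-fold fall with an adjusted p of 9.67e-06 (limma). The annotated gene spans 725 bases, whereas H2bc4 spans 8282 and H2bc21 spans 2667 bases. H2bc22, an H2B gene with a span of 14079 bases, was at 6.31 and 6.35 in T lineage arrays, 6.14 to 6.37 in deficient arrays and 6.31 to 6.34 in wildtype lineage-negative arrays, and it was not called.

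**Figure D2:**
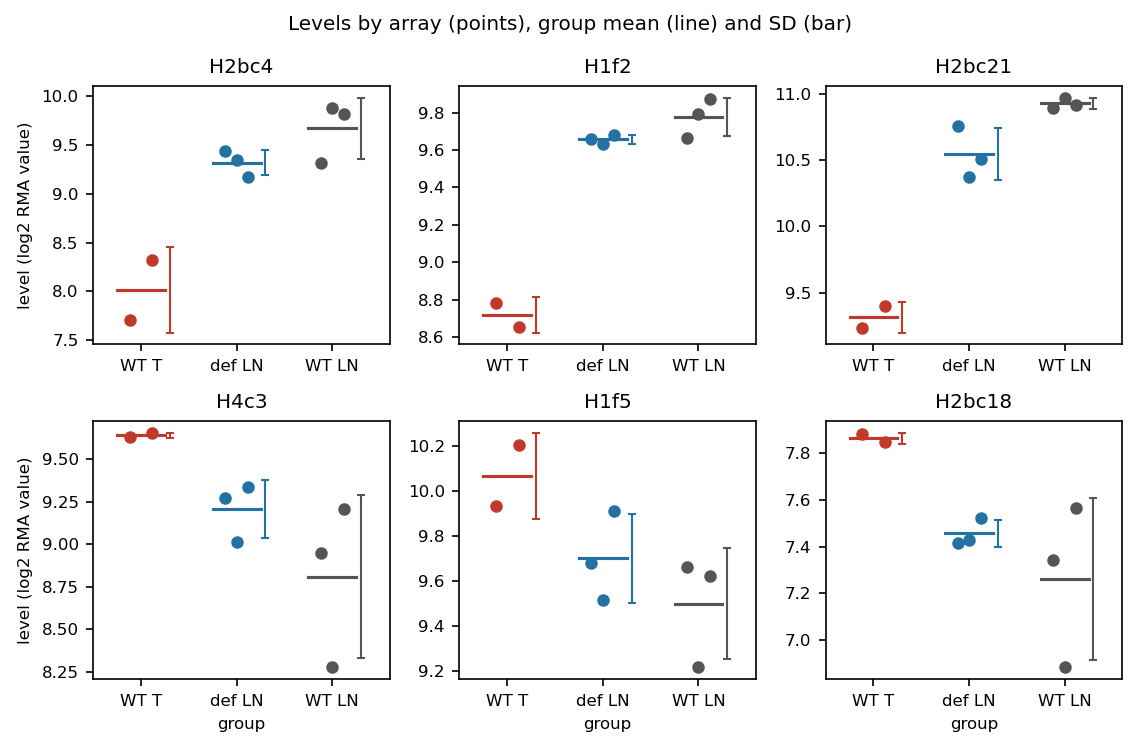
Log2 level by array for the 3 histone genes that fell in T lineage cells (upper panels) and for 3 that rose (lower panels), with points for arrays, a line for the group mean and a bar for the SD (n = 2, 3 and 3). Each panel has its own vertical range; the T lineage points lie below both lineage-negative groups for H2bc4, H1f2 and H2bc21 and above them for H4c3, H1f5 and H2bc18.

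Among the linker histones, H1f5 was the member that rose. H1f5, which encodes H1.5, was at 9.93 and 10.20 in T lineage arrays, 9.68, 9.51 and 9.91 in deficient arrays and 9.66, 9.21 and 9.62 in wildtype lineage-negative arrays. Both T lineage arrays were above the rest, by a small margin over deficient replicate 3. The rise against wildtype lineage-negative cells was 0.57 (SE 0.15, limma adjusted p = 0.0259). H1f1, another somatic linker histone gene, was at 9.17 and 9.18 in T lineage arrays, 9.02, 9.03 and 9.24 in deficient arrays and 8.95, 8.74 and 9.01 in wildtype lineage-negative arrays. Its T lineage and wildtype lineage-negative arrays did not overlap, but the difference of 0.28 was not called (limma adjusted p = 0.0908).

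H1f3, which encodes H1.3, was not called. It had 6.44 and 6.26 in T lineage arrays, 6.28, 6.12 and 6.45 in deficient arrays and 6.27, 5.99 and 6.37 in wildtype lineage-negative arrays, with all groups overlapping (difference 0.14, 95% interval -0.14 to 0.42). H1f10, the gene of H1.10, had 7.08 and 6.90 in T lineage arrays, 6.85, 7.17 and 6.91 in deficient arrays and 6.90, 6.95 and 7.0 in wildtype lineage-negative arrays, a difference of 0.04 (95% interval -0.19 to 0.27). None of the 3 germ-cell forms of H1 passed the test either. H1f6 ranged from 6.13 to 6.25 in T lineage arrays, 5.98 to 6.16 in deficient arrays and 6.01 to 6.14 in wildtype lineage-negative arrays. H1f7 ranged from 7.07 to 7.23, 6.98 to 7.08 and 7.04 to 7.09 in the same groups. H1f8 ranged from 6.00 to 6.07, 5.75 to 6.05 and 5.81 to 6.07. The groups overlapped for each of these 3, and their differences were 0.12, 0.09 and 0.10.

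Of the H2A genes, H2ac15 and H2ac1 rose. H2ac15 was at 10.09 and 10.01 in T lineage arrays, 9.70, 9.47 and 9.96 in deficient arrays and 9.62, 9.15 and 9.55 in wildtype lineage-negative arrays, a rise of 0.61 (SE 0.16, limma adjusted p = 0.0206). H2ac1, the testis H2A, was at 8.23 and 8.24 in T lineage arrays, 7.99, 7.96 and 7.96 in deficient arrays and 7.83, 7.81 and 7.91 in wildtype lineage-negative arrays. The 3 groups of H2ac1 did not overlap, and T lineage arrays were highest (difference 0.38, SE 0.07, limma adjusted p = 0.00358). Its neighbour H2bc1, the testis H2B, lies 0.28 kb away and had 6.51 and 6.35 in T lineage arrays, 6.09, 6.19 and 6.18 in deficient arrays and 6.17, 5.91 and 6.18 in wildtype lineage-negative arrays (difference 0.34, limma adjusted p = 0.0358). H2ac4 spread too widely to be placed, with 7.53 and 8.61 in T lineage arrays, 8.55, 7.65 and 8.26 in deficient arrays and 8.17, 6.99 and 8.27 in wildtype lineage-negative arrays. H2ac8 was not called, at 0.12.

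Of the H2B genes, H2bc14, H2bc18, H2bc9 and H2bc1 rose while H2bc4 and H2bc21 fell. H2bc14 was at 10.07 and 10.15 in T lineage arrays, 9.56, 9.68 and 9.78 in deficient arrays and 9.50, 9.15 and 9.84 in wildtype lineage-negative arrays (difference 0.62, SE 0.16, limma adjusted p = 0.0217). H2bc18 was at 7.88 and 7.85 in T lineage arrays, 7.42, 7.43 and 7.52 in deficient arrays and 7.34, 6.88 and 7.56 in wildtype lineage-negative arrays (0.60, SE 0.16, limma adjusted p = 0.0212). In both genes the T lineage arrays were above all others, and wildtype lineage-negative replicate 2 was the lowest array. H2bc9 was at 10.52 and 10.50 in T lineage arrays, 10.11, 10.07 and 10.25 in deficient arrays and 10.01, 9.70 and 10.16 in wildtype lineage-negative arrays, again with the T lineage arrays highest (0.56, SE 0.12, limma adjusted p = 0.00878). The other H2B genes, H2bc8, H2bc3 and H2bc22, had differences of 0.16, 0.14 and 0.00 and were not called. Calls in both directions were found among the H2B genes.

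Among the H4 genes all 6 differences were positive and 4 were called. H4c3 was at 9.63 and 9.65 in T lineage arrays, 9.27, 9.01 and 9.34 in deficient arrays and 8.95, 8.28 and 9.21 in wildtype lineage-negative arrays, a rise of 0.83 (SE 0.21), or 1.78-fold (limma adjusted p = 0.0208). H4c6 was at 9.18 and 9.17 in T lineage arrays, 8.85, 8.60 and 8.98 in deficient arrays and 8.46, 7.85 and 8.72 in wildtype lineage-negative arrays, also 0.83 (SE 0.21, limma adjusted p = 0.0176). The wildtype lineage-negative arrays of both genes spread over more than the difference between them and the deficient group, with replicate 2 lowest. H4c14 was tighter, at 9.95 and 9.88 in T lineage arrays, 9.41, 9.42 and 9.55 in deficient arrays and 9.34, 9.11 and 9.44 in wildtype lineage-negative arrays (0.62, SE 0.10, limma adjusted p = 0.00144). H4c8 was at 6.91 and 7.03 in T lineage arrays, 6.74, 6.73 and 6.80 in deficient arrays and 6.36, 6.27 and 6.59 in wildtype lineage-negative arrays, and its 3 groups did not overlap (0.56, SE 0.10, limma adjusted p = 0.00249). H4c4 was at 12.30 and 12.19 in T lineage arrays, 11.94, 11.99 and 12.12 in deficient arrays and 11.95, 11.29 and 11.96 in wildtype lineage-negative arrays. Its T lineage arrays were above all others without a call (0.51, limma adjusted p = 0.0682). H4c9 had a difference of 0.06.

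None of the 3 H3 members passed the test in either direction. H3c4 was at 7.74 and 7.50 in T lineage arrays, 7.52, 7.14 and 7.36 in deficient arrays and 7.34, 7.19 and 7.26 in wildtype lineage-negative arrays (difference 0.36, limma adjusted p = 0.0572). H3c15 went the other way, with 6.11 and 5.86 in T lineage arrays, 6.40, 5.68 and 6.33 in deficient arrays and 6.42, 6.45 and 6.40 in wildtype lineage-negative arrays (-0.44, limma adjusted p = 0.131). H3c7 had a difference of -0.05. At an unadjusted p under 0.05, 2 of the 3 H3 genes and 18 of all 30 members differed between T lineage and wildtype lineage-negative cells, against 6405 of the 21789 probesets.

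Genes that fell and genes that rose were neighbours in the clusters. On chromosome 13, H4c3, which rose, lies 5.6 kb from H2bc4 and 40.35 kb from H1f2, both of which fell. H1f6, between H2bc4 and H4c3, was not called. H2bc3, 7.2 kb from H1f2, was not called either. On chromosome 3, H2bc21 fell while H4c14 and H2bc18, 39.2 and 45.96 kb away, rose. H3c15, 14.74 kb from H2bc21, lies between H2bc21 and H4c14 and had a difference of -0.44 without a call.

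**Figure D3:**
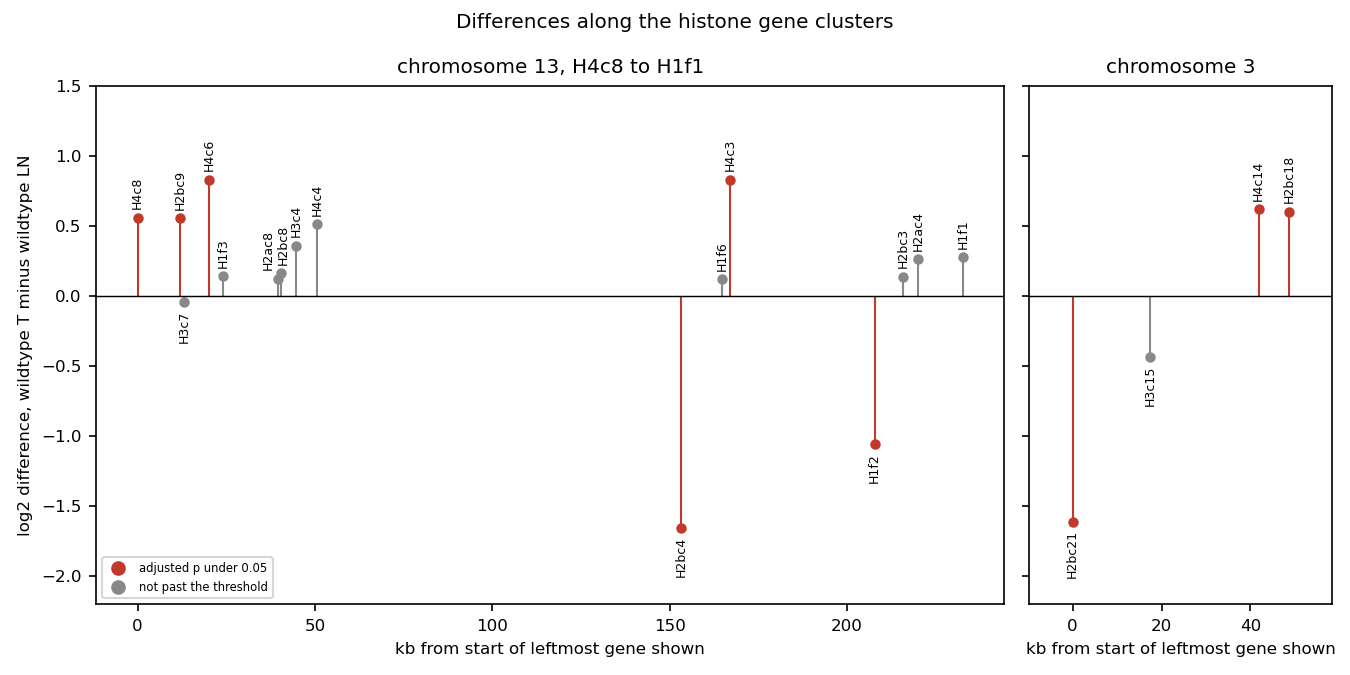
Log2 difference of wildtype T lineage minus wildtype lineage-negative cells (vertical axis) against distance in kb from the leftmost gene shown (horizontal axis), for the stretch of chromosome 13 that runs from H4c8 to H1f1 and for the chromosome 3 cluster; red marks an adjusted p under 0.05. H2bc4 and H1f2 point down on either side of H4c3, and H2bc21 points down in the cluster where H4c14 and H2bc18 point up.

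Histone paralogs are near-identical, so the RNA of 1 gene can bind another's probes, and the assignment of a value to a single paralog is uncertain. The 26 probesets mapped to several histone genes show what the shared sequence gave. Their differences between T lineage and wildtype lineage-negative cells were all positive. They were 0.57 to 0.74 for the 10 probesets of H3 genes, 0.45 to 0.64 for the 6 of H4 genes, 0.36 to 0.44 for the 7 of H2B genes and 0.38 to 0.42 for the 2 of H2A genes. The probeset shared by H2bc6 and H1f4 had 0.41. Of the 26, 4 formed 2 pairs with identical values. When the 17 of them whose genes all met the rule were fitted along with the tested probesets, 16 were called higher in T lineage cells and 0 lower (limma), against 7.66% of all probesets called higher. With p adjusted over all 35399 probesets of the array, 8 of the 26 were called higher, all of H3 genes, and 0 of the 6 of H4 genes. None of the 17 was called in T lineage minus deficient or in deficient minus wildtype lineage-negative cells, where their differences were 0.21 to 0.52 and 0.12 to 0.36. All 10 H3 probesets belonged to these 17. They were mapped to the same 12 H3 genes, and most H4 probesets to the same 11 H4 genes. Such counts are not of separate genes, so they do not compare directly with shares over all probesets. Wildtype lineage-negative replicate 2 was the lowest array for each of the 26, and they were not refitted without it.

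Against deficient lineage-negative cells, T lineage cells showed 3 called falls and 2 called rises. H2bc4 fell by 1.31 on the log2 scale (SE 0.20, limma adjusted p = 0.00108), H2bc21 by 1.23 (SE 0.11, limma adjusted p = 2.97e-05) and H1f2 by 0.94 (SE 0.08, limma adjusted p = 2.97e-05). These are falls of 2.47-, 2.34- and 1.92-fold. H4c14 rose by 0.46 (limma adjusted p = 0.0113) and H2ac1 by 0.26 (limma adjusted p = 0.0321). The 2 rises were 6.67% of the members, against 5.98% of all probesets, and the 3 falls were 10.0%, against 8.16%, both shares near the background. The median difference over the members was 0.12, against 0.04 over all probesets, with 21 positive and 9 negative. Both T lineage arrays were above all deficient arrays for 12 members (40%, against 23.6% of all probesets) and below them for 3 (10.0%, against 17.1%). The comparison shares its T lineage arrays with the previous one, so these comparisons are not independent. Dendritic cell markers were lower here for 9 of 10, granulocyte and monocyte markers for 7 of 13 and OP9 stromal markers for 3 of 10.

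Members that rose against wildtype lineage-negative cells, and were chosen by that comparison, had smaller differences against deficient ones. H4c3 stood 0.83 above wildtype and 0.44 above deficient lineage-negative cells, and H4c6 0.83 and 0.36. For H2bc14 the values were 0.62 and 0.44, for H2bc18 0.60 and 0.41, for H2bc9 0.56 and 0.37, for H2ac15 0.61 and 0.34, for H1f5 0.57 and 0.37 and for H4c8 0.56 and 0.21. With all arrays, none of these 8 was called against deficient cells, where the limma adjusted p ranged from 0.073 (H2bc9) to 0.306 (H4c6). Wildtype lineage-negative replicate 2 was the lowest array for every member that rose. Without it the values were 0.443 and 0.439 for H2bc14 and 0.413 and 0.409 for H2bc18. For H4c3 they were 0.56 and 0.44, and for H4c6 0.58 and 0.36. H2bc14, H2bc18, H2bc9 and H4c3 were then called against deficient cells. For each gene, the gap between its values is its difference between deficient and wildtype lineage-negative cells.

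No histone gene was called between deficient and wildtype lineage-negative cells, the comparison of the genotypes within 1 sorted population. By limma, 0 of 30 members were called higher and 0 lower, against 0% and 0.00459% of all probesets, and the smallest adjusted p was 0.650. At an unadjusted p under 0.05, 4 members and 1071 of the 21789 probesets differed. Of the differences 23 were positive and 7 negative, with a median of 0.16, against -0.01 over all probesets. The deficient arrays were all above the wildtype arrays for H4c8, H2bc3, H1f1 and H2ac1 (4 of 30, 13.3%, against 3.93% of all probesets) and all below them for H2bc21 and H3c15 (2 of 30, 6.67%, against 6.01%).

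The 4 most positive members were H4c6 at 0.47 (95% interval 0.06 to 0.88), H4c3 at 0.40 (-0.03 to 0.82), H4c8 at 0.35 (0.15 to 0.54) and H2ac4 at 0.34 (-0.46 to 1.15). The 4 most negative were H2bc21 at -0.38 (-0.60 to -0.16), H2bc4 at -0.35 (-0.74 to 0.03), H3c15 at -0.29 (-0.65 to 0.06) and H1f2 at -0.12 (-0.29 to 0.05). These are single-gene intervals without adjustment for the number of genes. Among all 8, the limma adjusted p was 0.65 for H4c8 and H2bc21 and 0.979 for H4c6, and higher still for the others. H2bc4, H2bc21 and H1f2 also fell in T lineage cells, and the same wildtype lineage-negative arrays enter both comparisons. Without wildtype lineage-negative replicate 2, H4c6 was at 0.22, H4c3 at 0.13, H4c8 at 0.28 and H2ac4 at -0.06. H2bc21 was then at -0.36, H2bc4 at -0.25, H3c15 at -0.28 and H1f2 at -0.11.

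**Figure D4:**
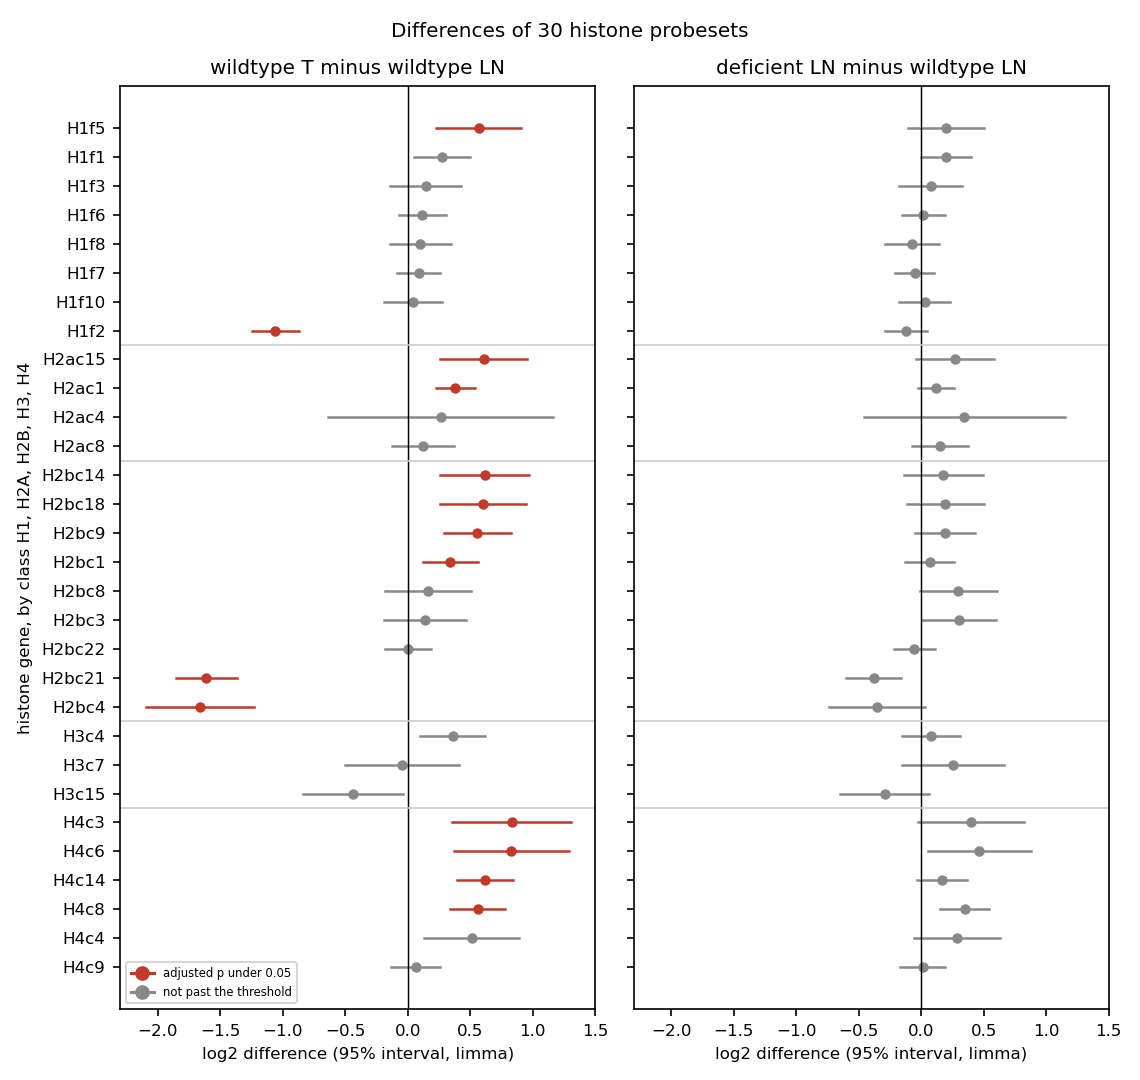
Log2 difference with its 95% interval (limma) for each of the 30 histone genes, wildtype T lineage minus wildtype lineage-negative cells on the left and deficient minus wildtype lineage-negative cells on the right; red marks an adjusted p under 0.05. On the left 11 genes are red above 0 and 3 below it, and on the right none is red.

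A single array weighed on the rises. Wildtype lineage-negative replicate 2 was the lowest of the 8 arrays for 19 of the 30 members, among them all 11 that rose, which were chosen by a comparison that uses this array. Without it, 8 of the 11 stayed called against wildtype lineage-negative cells (H4c3, H4c6, H4c8, H4c14, H2bc9, H2bc14, H2bc18 and H2ac1), and H1f5, H2ac15 and H2bc1 were lost. H4c3 then stood at 0.56 and H4c6 at 0.58, and the median over the members was 0.11. The median difference between deficient and wildtype lineage-negative cells became 0.03, with 19 of 30 positive. Against deficient cells, where this array enters the spread alone, 6 members were then called higher. The shares of all probesets called without this array were not taken. The 3 falls were called without it, at -1.55 for H2bc4, -1.59 for H2bc21 and -1.05 for H1f2. The rises also rested on 2 T lineage arrays, and 4 were called when either was left out, the remaining array being taken to vary like the other groups. H2ac1, H4c14 and H4c8 were called in both cases.

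Genes of DNA replication, which work in the same phase of the cell cycle as the clustered histone genes, were measured for 34 of 35 listed. In all gene and marker lists, a gene with several probesets was counted by 1 of them. This was the probeset of smallest p in T lineage against wildtype lineage-negative cells, whereas shares over all probesets count each probeset. In T lineage against wildtype lineage-negative cells 8 rose, 0 fell and 26 were not called, with a median of 0.21, against 0.04 over all probesets. The 8 were 23.5% of the list, against 7.66% of all probesets. The 5 of smallest p were Gins2 (0.67), a subunit of the replicative helicase complex, Orc1 (0.47), of the origin recognition complex, Rpa2 (0.32), which binds single-stranded DNA, Mcm10 (0.36), an initiation factor, and Tyms (0.29), thymidylate synthase. Pcna, the sliding clamp, had 0.13 and 0.11 on its 2 probesets and was not called. The median level of the list was 9.92 and 10.05 in T lineage arrays, 9.67 to 9.83 in deficient arrays and 9.71 to 9.78 in wildtype lineage-negative arrays. Wildtype lineage-negative replicate 2 had a median of 9.71 on this list, against 9.78 and 9.75 in replicates 1 and 3. Its median over all 30 histone genes was 7.83, against 8.28 and 8.27. A list median can hide single genes. Replicate 2 was the lowest wildtype array for many replication genes, such as Mcm2 (9.47, against 9.79 and 9.69). For others, such as Prim1, it was not (11.00, against 10.88 and 10.98). The replication rises were not examined without this array.

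Of the listed genes of mitosis, 23 were measured. In the same comparison 6 fell (26.1%, against 10.4% of all probesets), 0 rose and 17 were not called, with a median of -0.08, against 0.04 over all probesets. Kif23 (-0.65), a kinesin of cell division, Cenpf (-0.50), a kinetochore protein, Nusap1 (-0.40), a spindle protein, Mki67 (-0.30), the proliferation marker Ki-67, and Top2a (-0.68), topoisomerase 2, had the smallest p. The other Top2a probeset was not called, so Top2a counts among the 6 falls only through its probeset of smallest p. Among the uncalled genes, picked out after their values were seen, Plk1, a mitotic kinase, had 9.35 and 9.38 in T lineage arrays, above all wildtype lineage-negative arrays (0.43, limma adjusted p = 0.0695), and Aurkb and Tpx2 had 0.15 and 0.11. Median levels were 10.09 and 9.90 in T lineage arrays, 10.04 to 10.35 in deficient arrays and 10.12 to 10.41 in wildtype lineage-negative arrays. In T lineage against deficient cells 3 replication genes rose (8.82%, against 5.98% of all probesets) and 3 of 23 mitosis genes fell (against 8.16%), and in deficient against wildtype lineage-negative cells 0 of either list was called (limma). The part of the cell cycle in the histone differences was not tested.

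**Figure D5:**
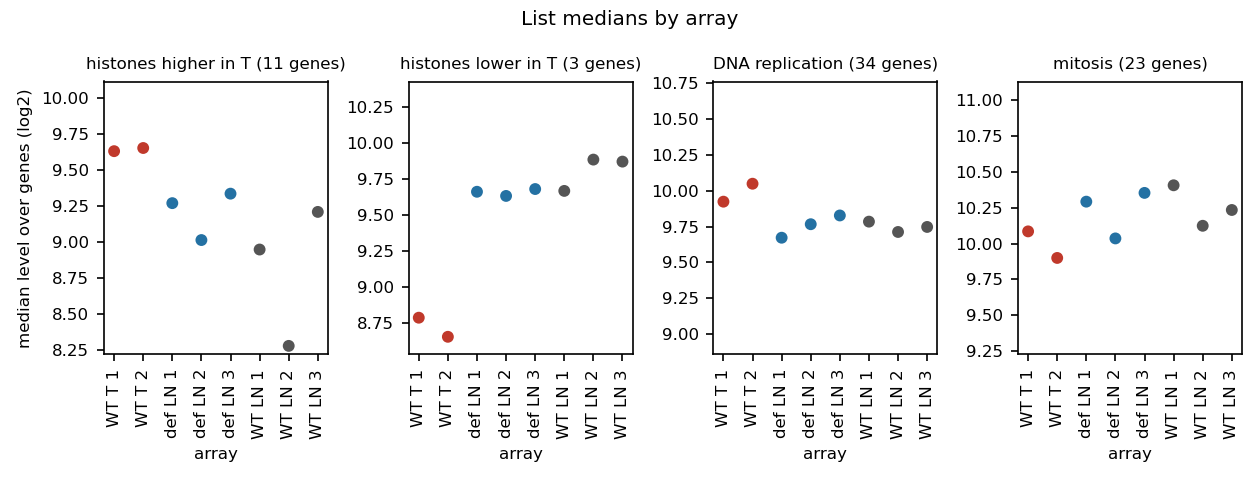
Median log2 level by array over the 11 histone genes that rose in T lineage cells, the 3 that fell, 34 DNA replication genes and 23 mitosis genes; each panel spans the same range of log2 units. The T lineage arrays are highest for the rising histone genes and for DNA replication and lowest for the 3 falling histone genes. The histone genes of the first 2 panels were chosen by a comparison that uses these arrays.

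Of the listed factors that make and process histone mRNA, 23 were measured. In T lineage against wildtype lineage-negative cells 3 of the 23 rose (against 7.66% of all probesets), 0 fell and 20 were not called, with a median of 0.06. Ncbp1, of the cap-binding complex, rose by 0.34, Celf1, an RNA-binding protein, by 0.32 and Sympk, a scaffold of the 3′ end cleavage complex, by 0.43. Celf1 had another probeset at -0.04, with overlapping groups (limma adjusted p = 0.787). Sympk had 2 further probesets, which carried identical values and had a difference of -0.20 (limma adjusted p = 0.190), with both T lineage arrays below all wildtype lineage-negative arrays. The direction for Sympk thus differed between probesets. Celf1 and Sympk count among the 3 rises only through their probesets of smallest p. Slbp, the stem-loop binding protein, had differences of 0.01 and -0.05 on its 2 probesets, and Npat, the coactivator of histone genes, had -0.01, with no call for either gene. On the probeset with -0.05, Slbp was at 10.29 and 10.37 in T lineage arrays, 10.31 to 10.40 in deficient arrays and 10.37 to 10.41 in wildtype lineage-negative arrays.

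Histone chaperones, which carry newly made histones to DNA, were measured for 24 genes, of which 4 rose, 0 fell and 20 were not called, with a median of 0.13. The 4 were 16.7% of the list, against 7.66% of all probesets. Ipo4, an importin for H3 and H4, rose by 0.66, Chaf1a and Chaf1b, subunits of the chromatin assembly factor that acts at replication forks, by 0.50 and 0.42, and Hira, of the replication-independent H3.3 deposition complex, by 0.36. Chaf1a was at 9.46 and 9.68 in T lineage arrays, 9.20, 9.17 and 9.31 in deficient arrays and 9.21, 9.02 and 8.99 in wildtype lineage-negative arrays, with no overlap of T lineage and other arrays. Ipo4 and Chaf1a were also called against deficient cells, at 0.55 and 0.34. They were 8.33% of the list, against 5.98% of all probesets, a share near the background. Ubn2, a partner of Hira, had -0.28 without a call.

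Replication-independent histone variants fell or were not called. Of 9 measured, 4 fell, 0 rose and 5 were not called in T lineage against wildtype lineage-negative cells, with a median of -0.26. The 4 were 44.4% of the list, against 10.4% of all probesets. Macroh2a1, the gene of macroH2A1, was at 11.00 and 11.01 in T lineage arrays, 11.63, 11.64 and 11.62 in deficient arrays and 11.57, 11.58 and 11.61 in wildtype lineage-negative arrays (difference -0.58, SE 0.07, limma adjusted p = 0.000163). H2az2, which encodes H2A.Z.2, fell by 0.52, H2aj, an H2A variant, by 0.28 and Cenpa, the centromeric H3, by 0.26. H2az1 (H2afz in the older naming), which encodes H2A.Z.1, had 0.10 and 0.09 on its 2 probesets with overlapping groups, and H2ax, the H2A of DNA damage signalling, had -0.16, and neither was called. Against deficient cells 3 of the 9 variants fell (33.3%, against 8.16% of all probesets) and 0 rose. Between deficient and wildtype lineage-negative cells 0 were called (limma).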

How the data were processed

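Expression was measured on 8 arrays of wildtype T lineage (2), deficient lineage-negative (3) and wildtype lineage-negative cells (3). The deposited log2 values were made by the authors with RMA in Partek 6.5, per the submitters' processing notes. RMA puts all arrays on a common distribution and gives 1 value per probeset. Per the labels, total RNA was amplified with a whole-transcript kit. How the RNA was primed, which bears on mRNAs without a poly(A) tail, is not stated in the labels. The array's build is not given in the sources used here, no detection call was used, and precision is limited by the number of arrays. Probesets without a gene (11989) or with several were left out of the main test. The 21789 others were fitted with limma 3.58.1 (R 4.3.3) as 3 groups over all 8 arrays, two-sided, with Benjamini-Hochberg adjustment over all of them and a threshold of 0.05. The script was tested on simulated data with 200 changed probesets. Named are the 10 largest rises and all falls in T lineage against wildtype lineage-negative cells, the 4 most positive and 4 most negative members in deficient against wildtype, all H1 genes, the member with the highest mean of each class, and from other lists up to 5 genes of smallest p plus Slbp, Npat, Pcna, Mki67 and H2az1. Other genes named were chosen after their values were seen. Members, lists and alternatives were chosen with earlier results of these data known. All 30 members matched RefSeq (GRCm38.p6) by gene identifier, and promoter sequences are RefSeq's. Genotype labels were not checked against the targeted gene, which is not analysed here. Alternatives were other normalisations, filters, adjustments, models and arrays left out.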

Additional observations from a re-analysis of the deposited data

How the results depend on the processing

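The 3 falls of H2bc4, H2bc21 and H1f2 in T lineage cells were called in all 16 alternatives, against wildtype (H2bc4 -1.97 to -1.35, H2bc21 -1.69 to -1.53, H1f2 -1.13 to -0.99) and against deficient lineage-negative cells. H2ac1, H4c14 and H4c8 were called higher against wildtype lineage-negative cells in all 16. The number called higher there, 11, became 4 with all probesets in the adjustment and 27 of 47 with probesets of several histone genes, and ranged from 4 to 12 with 1 array left out. Against deficient cells the number called higher, 2, became 5 with only the 2 groups compared, 1 with median centring and 1 with all probesets in the adjustment, and ranged from 0 to 6 with 1 array left out. It was 6 without wildtype lineage-negative replicate 2 and 0 without T lineage replicate 1. Whether replicate numbers pair the samples was not settled. Over all tested probesets, the deviations of same-numbered deficient and wildtype lineage-negative arrays correlated at -0.13, 0.017 and 0.0431. Same-numbered wildtype lineage-negative and T lineage arrays correlated at 0.158 and 0.12, and deficient and T lineage arrays at -0.138 and -0.247. Deviations of the 2 T lineage arrays mirror each other, so correlations with them cannot decide the question. With the replicate number as a block, the counts called higher were 14 against wildtype and 5 against deficient cells. Of all 21789 probesets, 1480 and 1148 were then called higher. With median centring 1211 of them were called higher against deficient cells. Shares over all probesets were not taken with arrays left out, with only the 2 groups compared or with all probesets in the adjustment. A general change in calls cannot be told apart there. No alternative gave a call between deficient and wildtype lineage-negative cells. Each comparison had 472 combinations of a member with an alternative, many of them for members not called in the main fit. Of these, 28 lost a call and 15 gained one against wildtype, and 12 lost and 16 gained one against deficient cells. Only the 11 members called higher and 3 called lower against wildtype could lose a call there. Against deficient cells these were 2 and 3 members. No called member changed sign. The causes were not tested. Of the 30 members, 22 were outside the dimmest 40% of probesets. With 2 T lineage arrays, small differences of dim or variable members such as H2ac4 could not be resolved.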

Other observations

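Outside the naming rule, H4f16, another H4 gene, was at 8.37 and 8.43 in T lineage arrays, 7.98, 7.92 and 8.03 in deficient arrays and 8.08, 7.65 and 7.97 in wildtype lineage-negative arrays. Its rise was 0.50 against wildtype (limma adjusted p = 0.0119) and 0.42 against deficient lineage-negative cells (limma adjusted p = 0.0326), in both cases with no overlap of the groups. H2aw, an H2A gene, was at 10.29 and 10.35 in T lineage arrays and 9.48, 9.32 and 9.49 in deficient arrays, a rise of 0.89 (limma adjusted p = 0.00738). In wildtype lineage-negative arrays H2aw was at 10.41, 9.66 and 10.32, so that 2 arrays lay near the T lineage arrays and replicate 2 lay near the deficient ones. Its difference between deficient and wildtype lineage-negative cells was -0.70 and was not called (limma adjusted p = 0.529). Macroh2a2, the second macroH2A gene, was at 6.32 and 6.99 in T lineage arrays, 6.66, 6.94 and 7.35 in deficient arrays and 7.55, 7.29 and 7.09 in wildtype lineage-negative arrays, a difference of -0.66 without a call (limma adjusted p = 0.0696). These genes were chosen after their values were seen.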
